A study of Mus musculus with 24 samples.

Results

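10 genes of inhibitory neurons were followed through 3 days of silencing in the mouse entorhinal cortex: the GABA synthesis and packaging genes Gad1, Gad2 and Slc32a1, and the interneuron class genes Sst, Pvalb, Vip, Npy, Lhx6, Crhbp and Cck. They were chosen by name, 10 of the 55417 entries in the count table, and all 10 were counted in every library. Bulk RNA came from entorhinal cortex dissected out of adult mice (age 2 to 4 months) that were labelled tg/tg for a cross of Nop-tTA Line S with TRE-GlyCl-YFP Line 9531. There were 6 vehicle libraries (4 females, 2 males) and 6 libraries each (3 females, 3 males) taken 1, 2 and 3 days after the GlyCl channel was activated. Vehicle mice carried both transgenes as well, so the groups do not differ in labelled genotype. No group without the channel was given the activating agent, so effects of the agent itself and of channel activation cannot be told apart. GlyCl is an engineered glycine-receptor chloride channel that silences the neurons carrying it, and the Nop-tTA driver is known for the superficial layers of the entorhinal cortex. The labels name neither the activating agent nor the time at which vehicle tissue was taken, and which cells carried the channel was not measured here.

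GABA, the main inhibitory transmitter of the cortex, is made from glutamate by the glutamic acid decarboxylases. Gad1 encodes GAD67, which supplies most of the cell's GABA, and Gad2 encodes GAD65, which sits at nerve terminals. Slc32a1 encodes VGAT, the transporter that loads GABA into vesicles. Cortical interneurons fall into classes known by their peptides and calcium-binding proteins. Sst encodes somatostatin, Pvalb the calcium buffer parvalbumin, Vip vasoactive intestinal peptide, Npy neuropeptide Y, and Crhbp a secreted protein that binds corticotropin-releasing hormone and is found in many somatostatin cells. Lhx6 is a transcription factor of the somatostatin and parvalbumin lineages. Cck encodes cholecystokinin, which marks a class of basket cells and is also made by many excitatory neurons, so it is the least specific of the 10.

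The 250 bases upstream of the RefSeq start (GRCm38.p6) are printed for 5 of the 10, since Gad1, Slc32a1, Sst and Crhbp had the lowest p-values at day 1 and Vip ran in the other direction. Capitals mark matches, on either strand, to TGACGTCA (the cAMP response element, a palindrome known from the rat somatostatin gene), to TGACG, which is part of it, and to TATAAA (the TATA box).
Gad1 (chr2:70561879-70562128, plus strand): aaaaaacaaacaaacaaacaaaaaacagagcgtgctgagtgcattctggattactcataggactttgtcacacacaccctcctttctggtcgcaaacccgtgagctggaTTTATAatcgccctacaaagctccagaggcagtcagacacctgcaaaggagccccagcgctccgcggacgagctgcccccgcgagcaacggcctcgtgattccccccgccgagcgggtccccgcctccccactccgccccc
Slc32a1 (chr2:158610508-158610757, plus strand): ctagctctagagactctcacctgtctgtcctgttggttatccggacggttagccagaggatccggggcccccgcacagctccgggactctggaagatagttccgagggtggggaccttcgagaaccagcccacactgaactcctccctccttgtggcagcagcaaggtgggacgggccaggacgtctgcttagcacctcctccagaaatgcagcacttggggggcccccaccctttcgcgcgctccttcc
Sst (chr16:23890845-23891094, minus strand): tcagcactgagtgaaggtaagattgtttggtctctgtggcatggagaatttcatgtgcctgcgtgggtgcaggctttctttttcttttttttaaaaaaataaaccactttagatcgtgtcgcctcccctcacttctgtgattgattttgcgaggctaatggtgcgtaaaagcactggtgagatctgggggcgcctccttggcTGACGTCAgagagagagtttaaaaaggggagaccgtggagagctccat
Crhbp (chr13:95444832-95445081, minus strand): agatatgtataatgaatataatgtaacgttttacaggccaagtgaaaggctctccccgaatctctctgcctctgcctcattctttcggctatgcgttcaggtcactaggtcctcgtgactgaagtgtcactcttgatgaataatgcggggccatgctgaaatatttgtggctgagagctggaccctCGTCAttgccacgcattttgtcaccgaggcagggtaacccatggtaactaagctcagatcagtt
Vip (chr10:5638968-5639217, plus strand): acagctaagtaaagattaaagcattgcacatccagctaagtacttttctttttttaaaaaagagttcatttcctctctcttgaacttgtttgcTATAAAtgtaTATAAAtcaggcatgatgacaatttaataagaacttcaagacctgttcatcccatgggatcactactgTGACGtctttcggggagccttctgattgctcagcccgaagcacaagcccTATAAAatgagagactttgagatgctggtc
The full octamer was found upstream of Sst, at -48 to -41 from the start, and in no other window of the 10 genes, while 1.55% of 32851 RefSeq windows of this length hold it. TGACG was found in 5 of the 10 genes (Gad2, Sst, Vip, Crhbp and Cck), against 17.8% of all windows. TATAAA was found in 2 (Gad1 on the other strand, and Vip, the nearest match ending at -25), against 12.4% of all windows. TAATTA, the core that homeodomain factors recognise, was in 0 of the 10 and in 4.84% of all windows. The counts are of genes and the shares are of windows, and Pvalb has 2 windows and Lhx6 3. A match describes letters only, and no binding was measured.

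Between genes, levels were compared as CPM (counts scaled to a common library total, with trimmed-mean factors) per kilobase of exon. Length was the union of all annotated exons of a gene. A gene expressed mainly as a shorter transcript is therefore understated, and the order below depends on this choice. The mean over the 24 libraries was highest for Sst, at 334 CPM per kb, and next for Cck, at 298.5 (291 to 394.5 and 246.5 to 326 over libraries). Npy followed at 85.8, Gad1 at 43.5, Gad2 at 34.4, Pvalb at 32.8 and Slc32a1 at 29.7 CPM per kb. Vip at 13.3, Crhbp at 12.9 and Lhx6 at 5.32 CPM per kb came last. The ranges over libraries overlapped for 4 neighbouring pairs in this order, namely Sst and Cck, Gad2 and Pvalb, Pvalb and Slc32a1, and Vip and Crhbp. Gad1 exceeded Gad2 in 24 of 24 libraries. For scale, Slc17a7, the vesicular glutamate transporter of cortical excitatory neurons, averaged 317 CPM per kb. Even the scarcest of the 10, Crhbp by reads, had 344 reads or more in each library.

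Libraries held 16.6 to 23.7 M reads. The 7 GABA neuron markers were counted in every library and summed to 1117 to 1280 CPM. Ttr, the main transcript of the choroid plexus, stood at 562 to 1171 CPM in 8 libraries (vehicle 5, day 1 replicates 2 and 4, day 2 replicates 4 and 6, day 3 replicates 2, 3 and 6), while 16 libraries had 8.37 to 25.9 CPM. The summed level of 7 striatal neuron markers, genes of another GABA neuron population, ranged over 278 to 327 CPM in vehicle, 255 to 438 at day 1, 245 to 352.5 at day 2 and 265 to 338 at day 3, and was highest in day 1 replicate 2. Against vehicle, 0 of these 7 and 0 of 8 choroid plexus markers were called on any day. The share of all genes called was 0.0656%, 0.0656% and 0.614% at days 1, 2 and 3. All 8 choroid plexus markers had log2 fold changes above 0 on each day, with a wide spread between libraries. The lack of calls therefore does not show that choroid plexus tissue was equal between groups. Of 6 microglia markers, 2 were called higher at day 3, where 0.602% of all genes were called higher. The transgene marker EYFP averaged 61.7 ± 9.82 CPM at day 3 and 113 ± 19.5 CPM in vehicle (SD, n = 6 each; log2 fold change -0.89 ± 0.11, edgeR adjusted p = 1.19e-05).

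The comparison of each day with vehicle asked whether the inhibitory genes moved when the channel-bearing neurons were silenced. None of the 10 genes passed on any day: 0 of 10 were called at an adjusted p under 0.05 (edgeR quasi-likelihood test with group and sex, Benjamini-Hochberg over 16767 genes), where 0.0656% of all genes were called at day 1, 0.0656% at day 2 and 0.614% at day 3. The log2 fold changes were small and mostly below 0. They lay below 0 for 9 of 10 genes at day 1, 8 of 10 at day 2 and 10 of 10 at day 3, while 49.4%, 49.7% and 51.0% of all genes tested were below 0. The median over the 10 was -0.12, -0.12 and -0.08, beside medians of 0.0011, 0.0006 and -0.0016 over all genes tested. At an unadjusted p under 0.05, 4 genes were lower at day 1 (Gad1, Slc32a1, Sst and Crhbp), 4 at day 2 (Gad1, Slc32a1, Sst and Pvalb) and 3 at day 3 (Gad1, Sst and Pvalb), and 0 were higher. The share of all genes lower at that threshold was 4.31%, 2.46% and 2.06%, and the share higher was 2.93%, 2.74% and 3.58%. DESeq2 also called 0 of 10 on each day (0.412%, 0.107% and 0.751% of all genes), and so did limma voom (0.0656%, 0.0417% and 0.555%). Marker lists of other cell types also had members below 0. Of 8 markers of all neurons, 6, 6 and 8 were below 0 at days 1, 2 and 3 (medians -0.05, -0.02 and -0.03), and 4, 3 and 3 were lower at an unadjusted p under 0.05. Of 7 excitatory neuron markers, 4, 4 and 5 were below 0 (medians -0.05, -0.06 and -0.06), of 6 astrocyte markers 5, 5 and 4, and of 6 oligodendrocyte markers 3, 6 and 5. Of 7 striatal neuron markers, 1, 7 and 5 were below 0 (medians 0.12, -0.15 and -0.02), and 6 were above 0 at day 1. None of these 7 was lower at an unadjusted p under 0.05 on any day. None of the members of these lists was called, and the difference between the 10 genes and these lists was not tested. The 3 comparisons share their vehicle libraries. In bulk tissue, fewer cells of a type and less RNA per cell cannot be told apart.

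Gad1 (ENSMUSG00000070880.11) stood at 333, 352 and 380.2 CPM in vehicle (lowest, median and highest library), 309.7, 323 and 344 CPM at day 1, 313, 324 and 349.7 CPM at day 2 and 316, 332 and 342 CPM at day 3. Every day library lay below the vehicle median, and 5 of 6 at day 1, 5 of 6 at day 2 and 4 of 6 at day 3 lay below the lowest vehicle library, so the groups overlapped on each day. Its log2 fold change was -0.12 ± 0.04 at day 1, -0.11 ± 0.04 at day 2 and -0.10 ± 0.04 at day 3 (SE, n = 6 per group; edgeR adjusted p = 0.272, 0.733 and 0.577). The 95% intervals, not adjusted for the number of genes, were -0.20 to -0.05, -0.19 to -0.04 and -0.17 to -0.02. With the 8 libraries rich in Ttr left out the values were -0.15, -0.12 and -0.08. Its direction was below 0 under all 12 alternatives and in all 24 fits that left out a library, on each day. Reads of an antisense gene, Gad1os, came to 37 over the 24 libraries beside 154176 for Gad1.

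Gad2 (ENSMUSG00000026787.4), the other decarboxylase, had 199, 207 and 213 CPM in vehicle, 187, 194 and 235 CPM at day 1, 183, 201 and 216 CPM at day 2 and 189, 200.4 and 205 CPM at day 3. At days 1 and 2 its libraries reached both below and above the vehicle range. The log2 fold change was -0.04 ± 0.05, -0.05 ± 0.05 and -0.07 ± 0.05 (edgeR adjusted p = 0.915, 0.990 and 0.999). The highest library of the series was day 1 replicate 2, the one with the highest striatal markers and among those rich in Ttr. It also had the highest Gad1 and Slc32a1 and the lowest Cck of the day 1 group. Without it the day 1 log2 fold change was -0.10 for Gad2, -0.15 for Gad1 and -0.19 for Slc32a1, none called (edgeR adjusted p = 0.459, 0.135 and 0.110). The part of striatal or choroid plexus tissue in these values was not tested.

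Slc32a1 (ENSMUSG00000037771.12), the vesicular transporter, had 86.5, 87.4 and 96.5 CPM in vehicle, 70.8, 80.02 and 91.9 CPM at day 1, 76.25, 79.8 and 83.7 CPM at day 2 and 78.35, 81.6 and 94.0 CPM at day 3. At day 2 all 6 libraries lay below the lowest vehicle library, and it was the only one of the 10 genes with no overlap in any of the 3 comparisons; groups did not overlap for 0.328% of all genes at day 2 (0.596% at day 1 and 0.662% at day 3). At days 1 and 3, 5 of 6 libraries lay below the vehicle range. The log2 fold change was -0.15 ± 0.05, -0.15 ± 0.05 and -0.08 ± 0.05 (edgeR adjusted p = 0.38, 0.749 and 0.988). In males alone, with 2 vehicle libraries, it was -0.26, -0.22 and -0.20, and in females alone -0.08, -0.12 and -0.01. An interaction of group and sex was not called for any of the 10 genes (edgeR adjusted p = 0.9999 for each; smallest unadjusted p 0.0856, for Pvalb), nor for any gene tested (0%; 3.49% at an unadjusted p under 0.05).

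**Figure D1:**
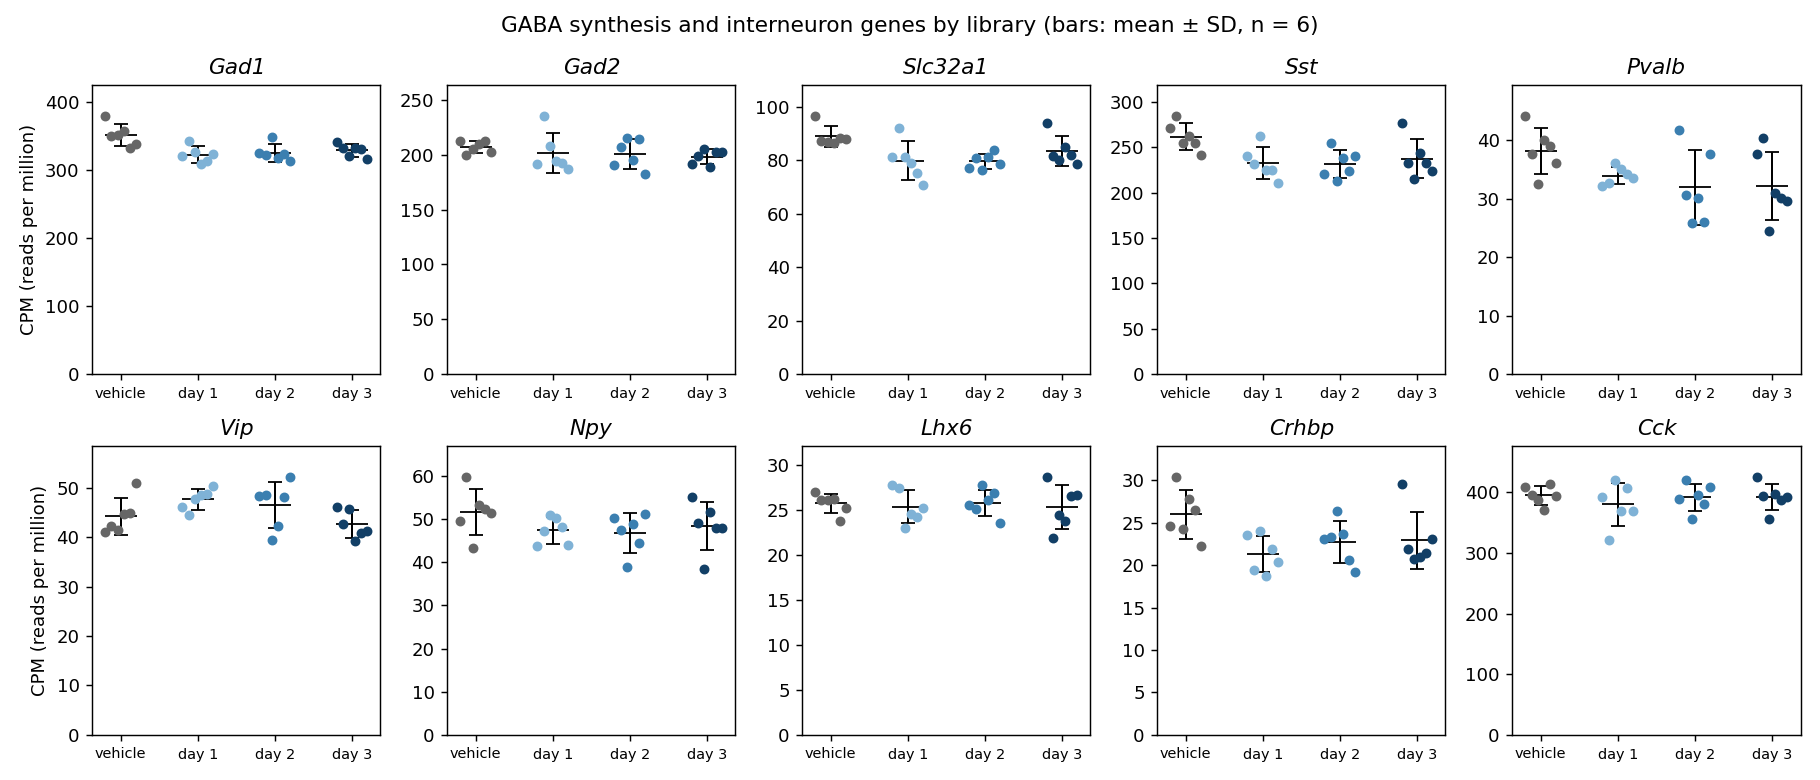
CPM (linear axis from 0) of each of the 10 genes in each library, by group. Points are libraries and bars are the mean ± SD of 6 libraries. The 6 day 2 points of Slc32a1 lie below all 6 vehicle points, and the groups of the other 9 genes overlap.

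Of the peptide and calcium-buffer genes, Sst (ENSMUSG00000004366.5) had 242, 258 and 284 CPM in vehicle, 210.0, 228 and 262 CPM at day 1, 213, 230.4 and 254.5 CPM at day 2 and 215, 233 and 277 CPM at day 3. Of the day libraries, 5 of 6, 5 of 6 and 4 of 6 lay below the lowest vehicle library. The log2 fold change was -0.15 ± 0.05, -0.16 ± 0.05 and -0.12 ± 0.05 (edgeR adjusted p = 0.390, 0.723 and 0.736), and it was below 0 in females alone and in males alone on each day. Crhbp (ENSMUSG00000021680.9), often made by the same cells, had 22.2, 25.55 and 30.4 CPM in vehicle, 18.7, 21.1 and 23.96 CPM at day 1, 19.2, 23.2 and 26.4 CPM at day 2 and 20.7, 21.7 and 29.6 CPM at day 3. The groups overlapped on each day, and 4 of 6 libraries lay below the vehicle range at days 1 and 3. Its log2 fold change of -0.27 ± 0.09 at day 1 was the largest in size of the 10 genes (edgeR adjusted p = 0.345), followed by -0.18 ± 0.09 and -0.17 ± 0.09 (adjusted p = 0.956 and 0.952). Without the filter on low counts Crhbp was called at day 1 (edgeR adjusted p = 0.0420), as were 0.441% of the 36066 genes then tested.

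Pvalb (ENSMUSG00000005716.17), which marks fast-spiking interneurons, had 32.5, 38.3 and 44.2 CPM in vehicle, 32.15, 33.9 and 36.1 CPM at day 1, 25.8, 30.4 and 41.7 CPM at day 2 and 24.5, 30.6 and 40.4 CPM at day 3. Its libraries were close together at day 1 and spread widely at days 2 and 3: the coefficient of variation was 10.2% in vehicle, 4.30% at day 1, 20.1% at day 2 and 18.1% at day 3. The log2 fold change was -0.16 ± 0.10, -0.25 ± 0.10 and -0.24 ± 0.10 (edgeR adjusted p = 0.812, 0.886 and 0.805). At day 3 it was -0.51 in males alone and -0.04 in females alone, a difference that the interaction test did not call. Without the filter on low counts Pvalb was called at days 2 and 3 (edgeR adjusted p = 0.0321 and 0.0208), as were 0.238% and 0.602% of the genes then tested. Over all 24 libraries Pvalb had the widest range of the 10 genes, the highest library being 1.81 times the lowest, against 1.23 times for Gad1.

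Vip stood apart in direction at days 1 and 2. It had 41.1, 43.5 and 50.9 CPM in vehicle, 44.4, 48.2 and 50.5 CPM at day 1, 39.5, 48.3 and 52.3 CPM at day 2 and 39.2, 41.9 and 46.2 CPM at day 3. All 6 day 1 libraries lay above the vehicle median but within the vehicle range. The log2 fold change against vehicle was 0.11 ± 0.06, 0.07 ± 0.06 and -0.06 ± 0.06 (edgeR adjusted p = 0.761, 0.990 and 0.999), and the day 2 value was below 0 under 1 of 12 alternatives. Between day 3 and day 1 it was -0.16 ± 0.06, with an unadjusted p of 0.0122 that did not pass (adjusted p = 0.358).

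Npy, Lhx6 and Cck did not reach an unadjusted p under 0.05 on any day. Npy had 43.4, 51.9 and 59.9 CPM in vehicle, 43.8, 47.7 and 51.0 CPM at day 1, 38.8, 48.2 and 51.3 CPM at day 2 and 38.5, 48.6 and 55.2 CPM at day 3, with log2 fold changes of -0.11 ± 0.07, -0.13 ± 0.07 and -0.08 ± 0.07. Lhx6 averaged 25.7 ± 1.09 CPM in vehicle, 25.4 ± 1.87 at day 1, 25.8 ± 1.44 at day 2 and 25.3 ± 2.44 at day 3 (SD, n = 6 each). The 95% interval of its log2 fold change was -0.15 to 0.10 at day 1, -0.13 to 0.13 at day 2 and -0.15 to 0.10 at day 3. Cck averaged 395 ± 15.6 CPM in vehicle, 380.1 ± 35.1 at day 1, 391 ± 22.7 at day 2 and 392 ± 22.2 at day 3, with intervals of -0.15 to 0.06, -0.11 to 0.10 and -0.11 to 0.10. The sign of Lhx6 and of Cck changed under some alternatives on each day, so no direction is given for either. For these 3 genes the smallest adjusted p against vehicle was 0.817 (edgeR, Npy at day 1).

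**Figure D2:**
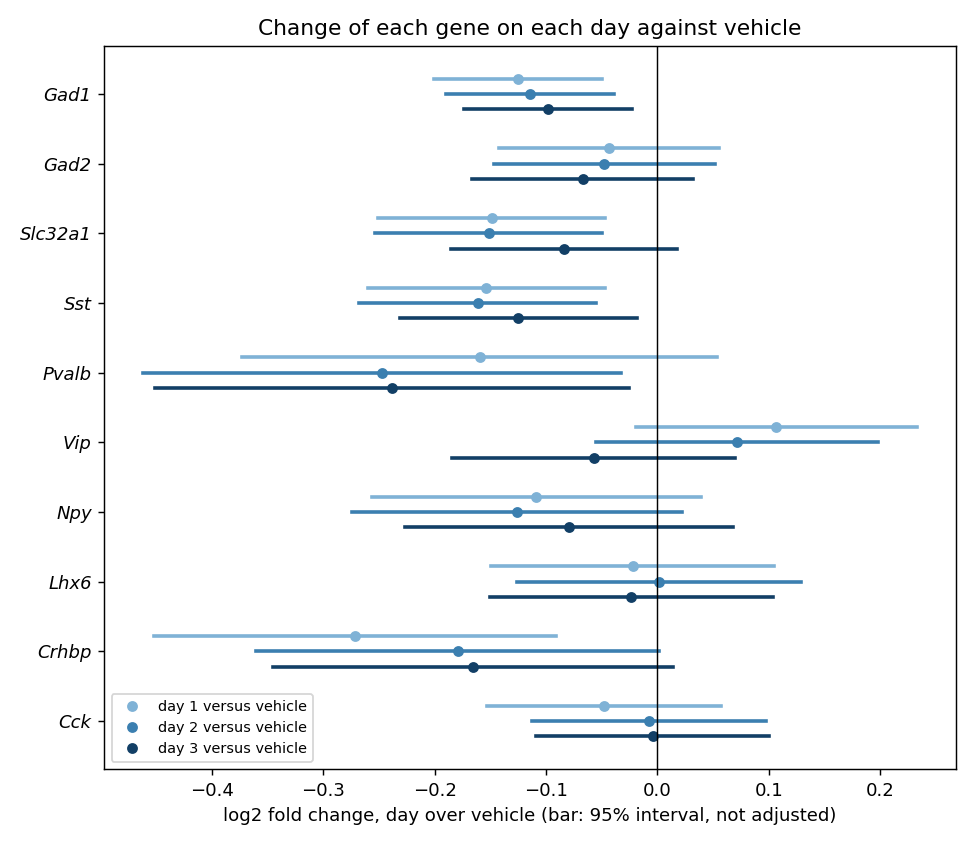
Log2 fold change of each gene on each day against vehicle (points) with its 95% interval, not adjusted for the number of genes (bars), from the edgeR fit over 24 libraries. The intervals of Gad1 and Sst lie below 0 on all 3 days, and those of Gad2, Vip, Npy, Lhx6 and Cck span 0 on all 3. No gene passed after adjustment over 16767 genes.

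The days were then compared with each other, and the 3 days were tested jointly and as an average. Between days, 0 of 10 genes were called in any of the 3 comparisons (0.0119% of all genes for day 2 against day 1, 0.131% for day 3 against day 2 and 0.65% for day 3 against day 1). At an unadjusted p under 0.05 the comparison of day 2 with day 1 held 0 of the 10 (4.25% of all genes), and the comparisons of day 3 with day 2 and with day 1 each held 1 that was lower, Vip (2.06% and 3.27% of all genes). In the joint test 0 of 10 were called, against 0.644% of all genes, 4 had an unadjusted p under 0.05, against 7.07%, and Gad1 had the smallest p of the 10 (unadjusted 0.00755, adjusted 0.337). The average of the 3 days against vehicle, a comparison added after the values were seen, also called 0 of 10, against 0.131% of all genes, and 5 were lower at an unadjusted p under 0.05, against 3.32%. In it Gad1 had a log2 fold change of -0.11 ± 0.03 (edgeR unadjusted p = 0.000813, adjusted p = 0.20) and Sst of -0.15 ± 0.04 (unadjusted p = 0.00163, adjusted p = 0.278). DESeq2 called Gad1 in that average (adjusted p = 0.0488), as it did 0.298% of all genes. Without the filter on low counts, edgeR called Pvalb in the joint test (adjusted p = 0.0123, where 1.20% of all genes were called) and Sst and Pvalb in the average (adjusted p = 0.0250 and 0.00681, where 0.488% were called). Between the sexes 0 of 10 were called, against 0.0716% of all genes. Sst was the only one lower in males at an unadjusted p under 0.05 (3.26% of all genes), with a log2 fold change of -0.09 ± 0.04 for males over females (unadjusted p = 0.0177, adjusted p = 0.629).

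Ratios of 2 genes within a library do not depend on how libraries are scaled to each other. 7 ratios were each compared on 3 days, 21 tests in all (exact permutation test of mean log2 ratios, two-sided, n = 6 per group, smallest possible p = 0.00216, Benjamini-Hochberg over the 21). Unlike the edgeR fit, this test did not account for sex, whose balance differed between vehicle and the days. The ratio of Gad1 to Slc17a7 was 0.201, 0.203 and 0.223 in vehicle (lowest, median and highest library), 0.188, 0.190 and 0.227 at day 1, 0.181, 0.187 and 0.191 at day 2 and 0.184, 0.1885 and 0.1995 at day 3. All libraries of day 2 and of day 3 lay below every vehicle library, and so did 5 of 6 at day 1, the exception being day 1 replicate 2. The difference from vehicle in mean log2 ratio was -0.15 at day 2 and -0.13 at day 3 (exact permutation adjusted p = 0.0227 for each), and the day 1 difference of -0.08 did not pass (exact permutation adjusted p = 0.284). Without day 1 replicate 2 the day 1 difference was -0.12. No p is given for it, since leaving out the only library that overlapped fixes the outcome of the permutation test. Without the 8 libraries rich in Ttr the differences were -0.13, -0.16 and -0.16. None passed among fewer libraries (exact permutation adjusted p = 0.0833 for each). All remaining day 2 and day 3 libraries still lay below every vehicle library. The unadjusted p of 0.00794 at day 2 and 0.0179 at day 3 was the smallest that so few libraries can give. A pass after adjustment was therefore hardly possible, and this setting cannot show that the difference depends on those libraries. For all genes as a background, the ratio to Slc17a7 did not overlap with vehicle for 0.501% at day 1, 0.227% at day 2 and 0.531% at day 3. The difference depended on the excitatory gene in the denominator. With Camk2a, a kinase subunit abundant in excitatory neurons, in place of Slc17a7, the Gad1 ratio differed by -0.029, -0.0047 and -0.030 (exact permutation adjusted p = 0.701, 0.955 and 0.656). With the sum of the 7 excitatory markers in its place it differed by -0.04, -0.05 and -0.06 (exact permutation adjusted p = 0.455, 0.455 and 0.415). Both denominators were added after the values were seen. Gad1 entered these ratios with its fold changes known, so this is no independent evidence of its direction.

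The other 6 ratios gave 0 differences past the threshold over the 3 days. Gad2 to Slc17a7 differed by 0.00, -0.08 and -0.09 in mean log2 ratio, and Gad1 to Gad2 by -0.08, -0.07 and -0.03 (smallest exact permutation adjusted p = 0.284). The ratio of Gad1 to Gad2 averaged 1.70 in vehicle, 1.61 at day 1, 1.62 at day 2 and 1.66 at day 3. Sst to Gad2 differed by -0.13, -0.13 and -0.08, Pvalb to Gad2 by -0.12, -0.23 and -0.20, Vip to Gad2 by 0.16, 0.12 and 0.01, and Sst to Pvalb by -0.01, 0.10 and 0.12. Slc17a7 itself had log2 fold changes of -0.05 ± 0.03, 0.03 ± 0.03 and 0.02 ± 0.03 and was not called (edgeR adjusted p = 0.826, 0.991 and 0.999). Camk2a had -0.08 ± 0.04, -0.10 ± 0.04 and -0.06 ± 0.04 and was not called either (edgeR adjusted p = 0.627, 0.790 and 0.999).

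**Figure D3:**
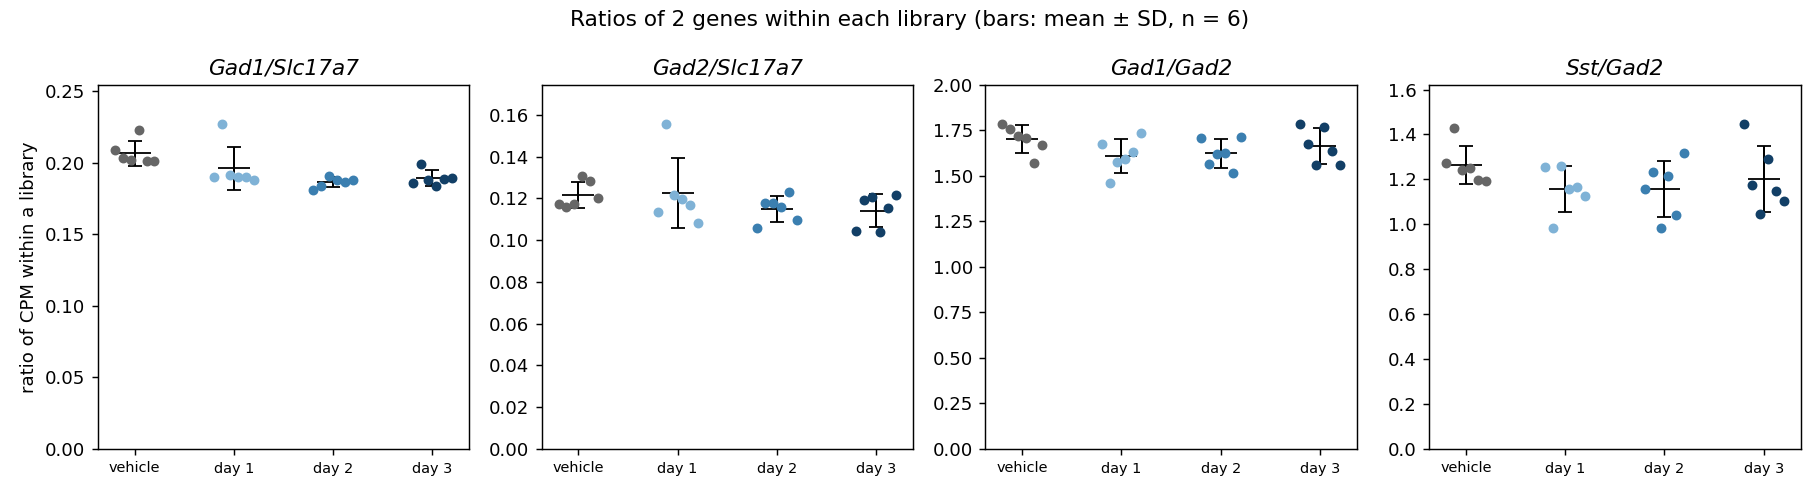
Ratio of CPM of 2 genes within each library (linear axis from 0), by group. Points are libraries and bars are the mean ± SD of 6 libraries. In the first panel the day 2 and day 3 points of Gad1 over Slc17a7 lie below all vehicle points, and the groups of the other 3 ratios overlap.

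Over the 24 libraries, with group and sex fitted, the 10 genes formed 45 pairs (permutation tests with 100000 permutations, Benjamini-Hochberg over the 45). The permutations shuffled the values left after that fit, with no allowance for the fitted terms. These p-values are therefore too small, and pairs past the threshold are given as a description only. Pvalb and Npy varied together most closely, with a Pearson's r of 0.672 (permutation adjusted p = 0.0238) and a Spearman's rho of 0.637 (permutation adjusted p = 0.0362). The r was 0.723 without the 2 libraries farthest from the median of Pvalb, and 0.665 in the 16 libraries poor in Ttr (permutation adjusted p = 0.0673). It was the only pair past the threshold by Pearson's r, and by Spearman's rho Sst and Npy also passed (r = 0.565, permutation adjusted p = 0.0655; rho = 0.617, permutation adjusted p = 0.0362). Gad1, Gad2 and Slc32a1, which nearly all GABA neurons express, had r values of 0.456 to 0.513 that did not pass, and their rho was lower, at 0.191 to 0.275. Without the 2 libraries farthest from the median of Gad2, the r of Gad2 with Slc32a1 was 0.267. In the 16 libraries poor in Ttr, Sst with Cck (r = 0.755) and Sst with Slc32a1 (r = 0.741) had permutation adjusted p = 0.0265 and 0.0292. With the same terms fitted to fewer libraries these p-values are too small by more, so neither pair is counted as a result. The 8 libraries rich in Ttr left 3 degrees of freedom and gave no value.

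**Figure D4:**
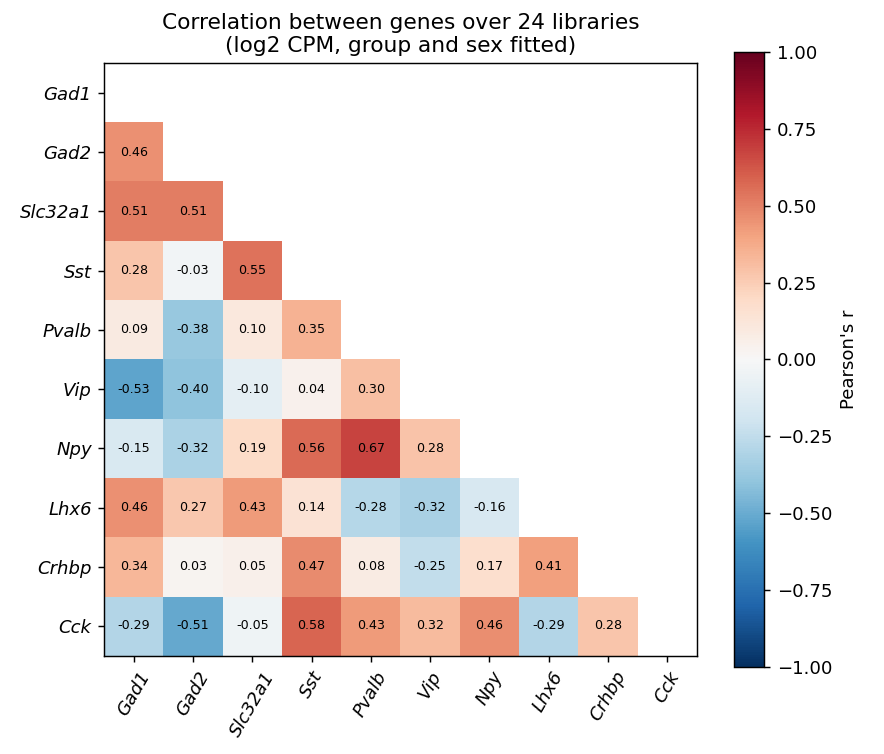
Pearson's r between each pair of the 10 genes over 24 libraries, from log2 CPM with group and sex fitted; the colour scale and the printed number both give r. The strongest square is Pvalb with Npy, at 0.67, and the lowest r is -0.53, between Gad1 and Vip.

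The genes outside the 10 whose log2 CPM followed Gad1 most closely over the 24 libraries, of 13349 ranked, were Clip2 (r = 0.802), Ehmt2, Apba1, Gnaz and Dlgap4 (r = 0.769 for the fifth). Those closest to Sst were Id3 (r = 0.790), Pym1, Ube2m, Ppp1r1a and Gm42517 (r = 0.761 for the fifth). These are the top of a long ranking in libraries that share depth and dissection, and they are given as a description.

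Genes around the 10 were followed in 5 lists, with 94 of 98 genes tested and 0 called against vehicle on any day in each list. Of 13 genes of GABA metabolism and transport, 10, 10 and 8 had log2 fold changes below 0 at days 1, 2 and 3, with medians of -0.05, -0.03 and -0.01. Glul, the glutamine synthetase of astrocytes, was at -0.08 ± 0.05, -0.08 ± 0.05 and -0.12 ± 0.05. The GABA transporter gene Slc6a11 was at -0.08 ± 0.06, -0.06 ± 0.06 and 0.04 ± 0.06, and the glutamine transporter gene Slc38a3 at -0.05 ± 0.07, -0.01 ± 0.07 and 0.16 ± 0.07. Of 21 tested genes of interneuron transcription and fate (23 listed), 10, 14 and 10 were below 0, with medians of 0.00, -0.03 and 0.02. Among them Sox6, needed by the same lineages as Lhx6, was at -0.15 ± 0.05, -0.10 ± 0.05 and -0.09 ± 0.05, Maf at -0.19 ± 0.06, -0.04 ± 0.06 and -0.05 ± 0.06, and Dlx1, a fate gene of GABA neurons, at -0.12 ± 0.05, -0.13 ± 0.05 and -0.02 ± 0.05.

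Of 33 tested markers of other interneuron classes (34 listed), 18, 21 and 22 were below 0, with medians of -0.04, -0.06 and -0.06. Nos1, the neuronal nitric oxide synthase, averaged 107.9 ± 16.7 CPM in vehicle, 133 ± 11.7 at day 1, 127.5 ± 18.4 at day 2 and 113 ± 15.3 at day 3 (SD, n = 6 each). Its log2 fold change was 0.31 ± 0.10, 0.25 ± 0.10 and 0.09 ± 0.10 and did not pass (edgeR adjusted p = 0.311, 0.793 and 0.999). Kcnc2, a potassium channel of fast-spiking cells, was at -0.10 ± 0.04, -0.05 ± 0.04 and -0.10 ± 0.04, and Slc17a8, a vesicular glutamate transporter found in some Cck interneurons, at 0.07 ± 0.16, -0.12 ± 0.16 and -0.39 ± 0.17.

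Of 14 tested receptors (15 listed), 9, 10 and 9 were below 0, with medians of -0.09, -0.10 and -0.03. The list held receptors of the peptides and also of the corticotropin-releasing hormone family, of which the 10 genes include only a binding protein. Sstr2, a somatostatin receptor, had 25.4, 27.3 and 31.2 CPM in vehicle (lowest, median and highest library), 21.5, 23.0 and 25.4 CPM at day 1, 23.0, 24.3 and 27.4 CPM at day 2 and 23.8, 27.9 and 29.5 CPM at day 3. Its log2 fold change was -0.25 ± 0.06 at day 1, with an unadjusted p of 0.000558 that did not pass (edgeR adjusted p = 0.149), then -0.15 ± 0.06 and -0.02 ± 0.06. Cckbr, the main cholecystokinin receptor of the brain, was at -0.18 ± 0.06, -0.11 ± 0.06 and -0.03 ± 0.06, and Crhr2, a receptor of the corticotropin-releasing hormone family, at 0.18 ± 0.17, -0.15 ± 0.18 and -0.17 ± 0.18. Of 13 genes of peptide processing and dense-core vesicles, 10 were below 0 on each day, with medians of -0.04, -0.02 and -0.04. Pcsk1, a prohormone convertase, was at -0.23 ± 0.09, -0.05 ± 0.09 and -0.24 ± 0.09, Vgf, a secreted neuropeptide precursor, at -0.19 ± 0.06, -0.01 ± 0.06 and -0.06 ± 0.06, and Chgb, a granule protein, at -0.03 ± 0.04, -0.04 ± 0.04 and -0.11 ± 0.04.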

How the data were processed

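The authors deposited 1 table of raw read counts per gene, whole numbers that are not normalized, with 24 library columns. Per the submitters' processing notes, the mm39 build was used, with STAR 2.7.9a, fastp 0.23.1 and DESeq2 1.32.0. The sources used here do not give the counting program, annotation release or use of strand. Groups came from the treatment label. Each library has its own animal number, but the labels do not say outright that each is a separate animal; if any is not, p-values measure only the spread between libraries.

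Symbols came from a table that held 52083 of 55416 identifiers. Counts were tested with edgeR 4.0.16 in R 4.3.3 (quasi-likelihood, two-sided, trimmed-mean factors, filterByExpr with minimum count 10 and minimum total 15, 16767 genes kept, all 10 members among them). The model held group and sex over 24 libraries, with Benjamini-Hochberg adjustment over all genes, and SE is the size of the log2 fold change over the root of F. Exon lengths came from GENCODE release M21, of another build than mm39, so no mm39 coordinates are given. Depth was 16.6 to 23.7 M reads. The fit was tested on simulated counts with known changes. These were all larger than any change of the 10 genes against vehicle in the main fit. The simulation therefore gives no measure of how often changes as small as theirs would be called.

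The 10 genes, the lists and the ratios were chosen with earlier results of these data known. Named besides them are Slc17a7, EYFP and Ttr, the 3 genes of each list with the smallest joint p (none was called), and the 5 genes closest to Gad1 and to Sst. Alternatives were DESeq2 1.42.0, limma voom 3.58.1, other factors and filters, group alone, the first digits of the animal number (7 values) as a factor, only the groups compared, 1 sex, libraries with Ttr up to 100 CPM, 2 other denominators for the Slc17a7 ratios, and 24 fits without a library.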

Additional observations from a re-analysis of the deposited data

Results flagged for a closer look

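Within groups of 6 libraries, each gene's highest and lowest library, as log2 CPM, were set against Dixon's 95% critical value, in 40 groups, of which chance gives about 1 in 20. In 3 of them a library stood apart. Gad1 at day 2 replicate 3 was at 349.7 CPM, the highest of its group, with a gap to the next library of 0.657 of the group's range on the log2 scale. Slc32a1 in vehicle replicate 1 was at 96.5 CPM (gap 0.807), and Crhbp at day 3 replicate 1 was at 29.57 CPM (gap 0.699). Each lay above the rest of its group. Without vehicle replicate 1, the log2 fold change of Slc32a1 was -0.11, -0.11 and -0.05 on days 1 to 3, against -0.15, -0.15 and -0.08 with it, and was not called.

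Cck moved in opposite directions in the sexes at days 2 and 3, in that every female library lay above the mean of female vehicle libraries and every male library below that of male ones. The mean log2 difference from vehicle at day 2 was 0.06 in 3 females and -0.10 in 3 males, a difference of 0.1613. At day 3 it was 0.05 and -0.09, a difference of 0.1393. This difference between the sexes on a single day was not tested; the interaction over the 3 days was not called (edgeR adjusted p = 0.9999), and the male values rest on 2 vehicle libraries.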

How the results depend on the processing

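No paired analysis was possible because replicate numbers were given in the order of the samples and tie no libraries together. The first digits of the animal number, fitted as a factor instead, left 0 of the 10 called on each day. For the comparisons of days with vehicle, the number of the 10 genes called was 0 in the main fit and in each of 24 fits without a library (range 0 to 0). Without the filter on low counts it was 1 at day 1 (Crhbp), 1 at day 2 and 1 at day 3 (Pvalb in both), 1 in the joint test (Pvalb), and 2 for the average of the days (Sst and Pvalb); by DESeq2 it was 1 for that average (Gad1). The cause was not tested. Over all genes, 11, 11 and 103 were called on days 1 to 3, against 159, 86 and 217 without the filter and 69, 18 and 126 by DESeq2. The other alternatives called 0. Ratios past the threshold numbered 2. They numbered 0 without the libraries rich in Ttr, where the smallest unadjusted exact permutation p was 0.00794, the smallest possible among so few libraries. They also numbered 0 with Camk2a in place of Slc17a7 and 0 with the summed excitatory markers in its place, 2 alternatives chosen after seeing the data. Without 1 library the ratios past the threshold numbered 2 to 3, and the third, Gad1 to Slc17a7 at day 1, appeared only without day 1 replicate 2. Leaving out that library, the only one that overlapped, fixes the outcome of the permutation test, so the third is not counted as a result. Correlated pairs past the threshold numbered 1 by Pearson's r, 2 by Spearman's rho and 2 in the 16 libraries poor in Ttr. The permutation p-values behind these counts are too small, since the fitted group and sex terms were not allowed for. Gad1, Gad2, Slc32a1, Sst, Pvalb, Npy and Crhbp kept a log2 fold change below 0 on each day under all 12 alternatives and 24 fits without a library, but the sizes moved: Gad2 at day 1 came to -0.0012 in females alone, Crhbp at day 2 to -0.0054 in males alone, Slc32a1 at day 3 to -0.0067 in females alone, and Npy at day 3 to -0.0015 in the 16 libraries poor in Ttr. With 1 library left out, values moved for Npy at day 3 to -0.0332 (day 3 replicate 3), Pvalb at day 1 to -0.0909 (vehicle replicate 1), Gad2 at day 2 to -0.0227 (day 2 replicate 6) and Crhbp at day 3 to -0.2548 (day 3 replicate 1). Vip, Lhx6 and Cck changed sign in some. With upper-quartile factors the median of all genes was 0.0092, 0.0077 and 0.0078 on days 1 to 3. The spread between libraries set the precision: SE ran from 0.04 for Gad1 to 0.10 for Pvalb on the log2 scale.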
